A study of Mus musculus with 12 samples.

Results

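The genes described here encode the enzymes that build cholesterol and the other isoprenoids, together with proteins that carry, esterify or release sterols. Of 35 genes listed for these roles, 30 were measured on the array under their own symbol, out of 22180 named genes in all. Where a gene had several probe sets, the brightest on average over the 12 arrays stood for it. Acat2, Idi1, Soat1, Soat2 and Pdss1 had no probe set that named them alone and were not analysed here. Liver RNA came from male C57BL6/J mice aged 8 to 10 weeks injected in the tail vein with an Ad5 virus, and each RNA was hybridised to its own array. The control virus Ad-GFP carried green fluorescent protein and was used in 6 samples (GFP 1 to 6), and Ad-hApoF carried human ApoF, a lipoprotein-bound protein, and was used in 6 (hApoF 7 to 12). All animals were killed 4 days after injection, at 3 pm, after 6 h without food. The labels name neither the promoter of the transgene nor the viral dose, both groups carried a virus, and livers without virus were not analysed here.

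Mammalian cells make cholesterol from acetyl-CoA. The mevalonate steps give farnesyl diphosphate, which squalene synthase draws into sterols and other enzymes draw into geranylgeranyl groups, dolichol and the tail of coenzyme Q. The transcription factor SREBP2, held in the endoplasmic reticulum by Scap and the Insig proteins when sterol is plentiful, is known to raise transcription of the sterol enzymes when sterol is scarce, and liver is a main site of this regulation.

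Livers given hApoF had higher transcript levels of sterol synthesis enzymes both in the mevalonate steps and between squalene and cholesterol. Measured genes of the isoprenoid side branch had log2 differences (hApoF minus GFP) from -0.31 to 0.12. Of 16 measured enzymes between acetyl-CoA and cholesterol 9 rose and 0 fell in the limma test (adjusted p below 0.05). That is 56.2% of them, beside 2.11% of all genes that rose. All 16 log2 differences were above 0, beside 57.7% of all genes. The 16 ran from 0.13 to 1.05 with a median of 0.50, against a median of 0.03 over all genes. None of the 16 turned negative when arrays were centred or quantile normalized again. Of 9 isoprenoid members 0 rose and 1 fell, beside 2.11% of all genes that rose and 4.80% that fell. With 9 genes, a count of 0 that rose is near the share over all genes. The isoprenoid median was -0.07, which was -0.03 without GFP 3 or after a second quantile normalization and -0.11 without GFP 4. At an unadjusted p below 0.05 the enzymes that were lower also numbered 0, as did the isoprenoid members that were higher. Among 5 measured sterol handling genes, 2 rose and 0 fell.

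**Figure D1:**
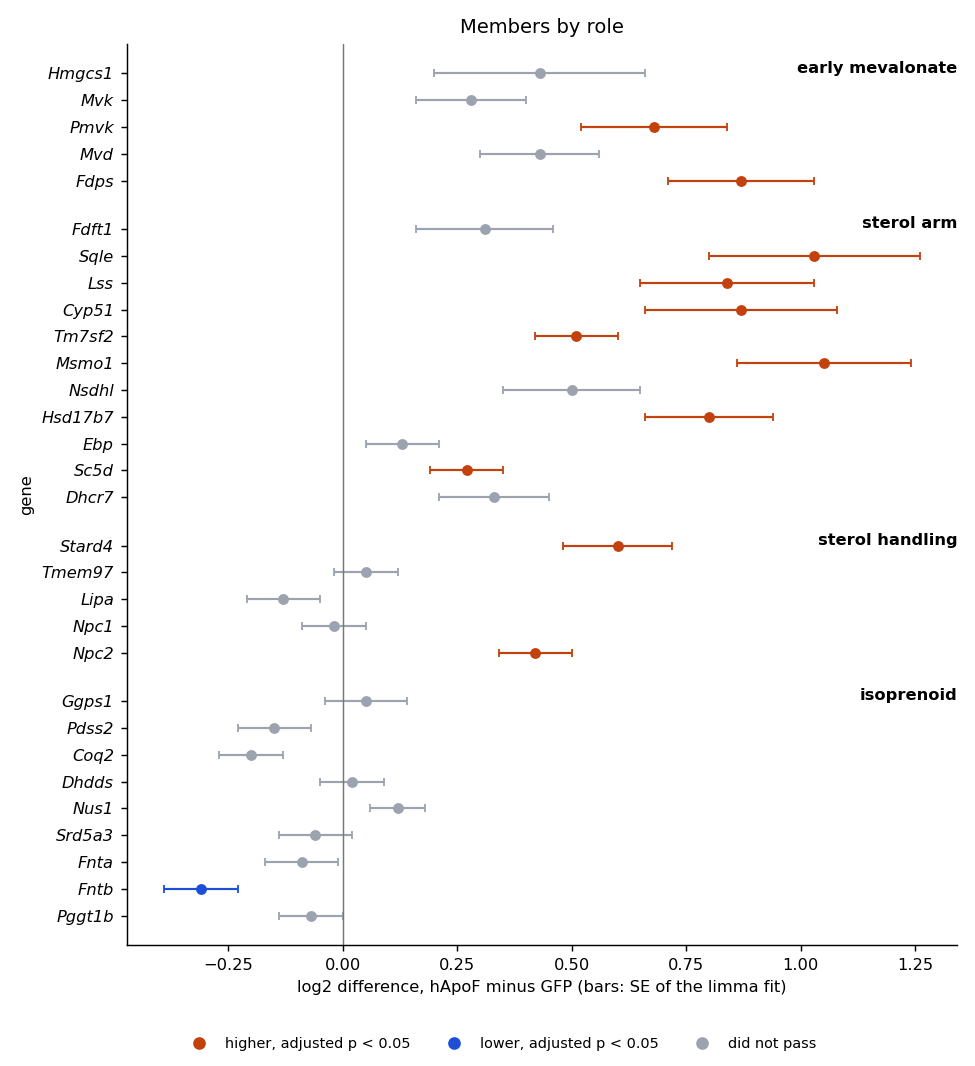
Log2 difference in level, hApoF minus GFP (horizontal axis), for the 30 measured members, arranged by role and, for the enzymes, in pathway order; bars are the SE of the limma fit over 6 GFP and 6 hApoF arrays, and colour marks the test. The 16 enzymes lie between 0.13 and 1.05, and the isoprenoid members between -0.31 and 0.12.

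Among the mevalonate enzymes, Fdps, which joins isoprene units into farnesyl diphosphate, had the clearest rise. Its log2 level was 7.92, 8.52 and 8.78 (lowest, median and highest array) in GFP livers and 8.81, 9.40 and 9.64 in hApoF livers. Every hApoF array lay above every GFP array, which held for 1.49% of all genes. The difference was 0.87 (SE 0.16, 1.83-fold, limma adjusted p = 0.0039), and the call held in each omission of 1 array. Pmvk, phosphomevalonate kinase, had levels of 6.87, 7.13 and 7.56 in GFP livers and 7.26, 7.94 and 8.29 in hApoF livers. The groups overlapped through hApoF 11, the lowest hApoF array, and the other 5 hApoF arrays were above all GFP arrays. Pmvk rose by 0.68 (SE 0.16, limma adjusted p = 0.020), which did not pass when GFP 2 (0.050), GFP 3 (0.052) or the pair GFP 4 and hApoF 12 (0.063) was left out.

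The other 3 mevalonate enzymes did not pass. Mvd, the decarboxylase that yields isopentenyl diphosphate, came nearest, with 5.65, 6.00 and 6.15 in GFP livers against 6.14, 6.31 and 6.91 in hApoF livers. Only hApoF 11 fell within the GFP range, and the highest value, hApoF 7, stood well above the next at 6.32. The log2 difference for Mvd was 0.43 (95% interval 0.16 to 0.70, limma adjusted p = 0.056). It passed after a second quantile normalization (0.042), with trend and robust settings (0.036), over the brighter genes alone, those above the median probe set level (0.029), without GFP 4 (0.048) and without hApoF 11. Mvk, mevalonate kinase, differed by 0.28 (interval 0.02 to 0.54, limma adjusted p = 0.199).

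Hmgcs1, the cytosolic synthase that forms HMG-CoA, was the most scattered enzyme among hApoF livers. GFP arrays ran from 10.02 to 10.47 with a median of 10.33, and hApoF arrays from 10.01 in hApoF 11 to 11.68 in hApoF 7 with a median of 10.59. Thus 3 of 6 hApoF arrays exceeded every GFP array while hApoF 11 lay just below the lowest of them. The SD was 0.19 in GFP livers and 0.64 in hApoF livers (n = 6 each), and the log2 difference of 0.43 had a 95% interval of -0.06 to 0.91 (limma adjusted p = 0.305). Without hApoF 7 the difference was 0.23.

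**Figure D2:**
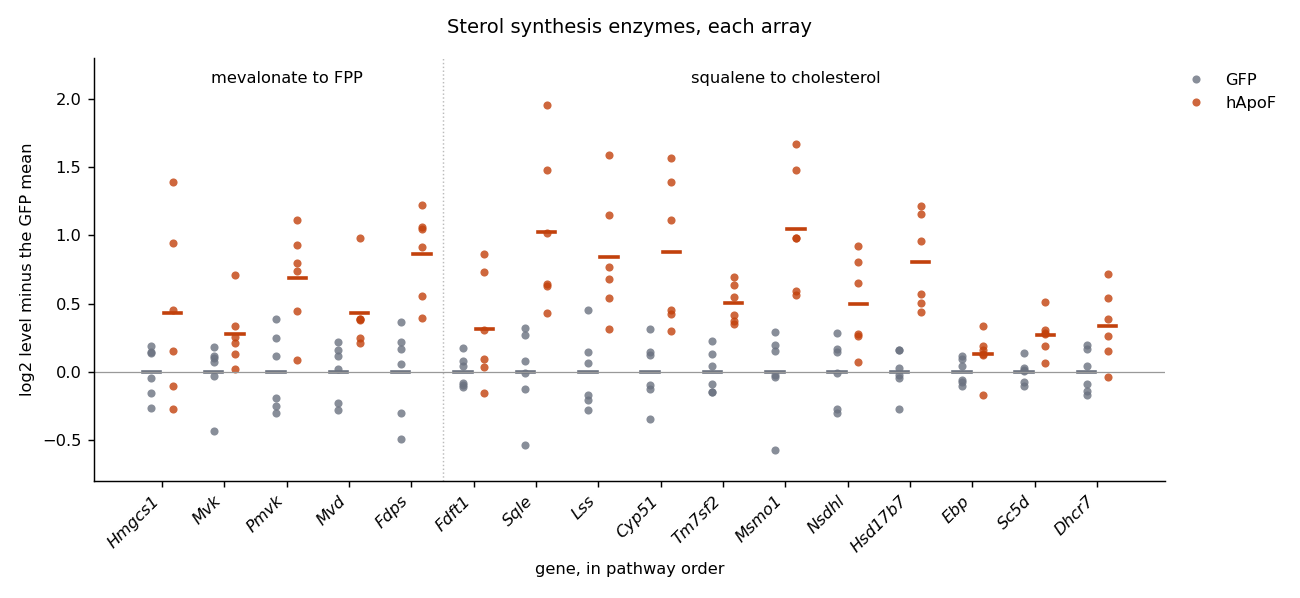
Log2 level of each of the 16 measured enzymes minus that gene's GFP mean (vertical axis), in pathway order, with 1 point per array and a bar at each group mean (6 GFP and 6 hApoF arrays). The hApoF means lie above 0 for all 16 genes, and the hApoF points of Sqle, Hmgcs1, Cyp51 and Lss are spread widely.

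In the sterol arm, from squalene to cholesterol, 7 of 11 enzymes rose. The largest difference was that of Msmo1, the oxygenase that starts the later removal of methyl groups from the sterol ring, after the Cyp51 step. Its log2 level was 7.62, 8.26 and 8.49 in GFP livers and 8.76, 9.18 and 9.87 in hApoF livers, with no overlap, and it rose by 1.05 (SE 0.19, 2.07-fold, limma adjusted p = 0.0031). Hsd17b7, the ketoreductase of the same demethylation, had levels of 8.05, 8.33 and 8.48 against 8.76, 9.08 and 9.54. These ranges were also apart, and the rise was 0.80 (SE 0.14, limma adjusted p = 0.0019). Nsdhl, the dehydrogenase that acts between them, had 9.46, 9.84 and 10.05 in GFP livers and 9.84, 10.23 and 10.69 in hApoF livers. Here only 3 hApoF arrays exceeded all GFP arrays, and the difference of 0.50 (95% interval 0.18 to 0.81) did not pass (limma adjusted p = 0.058). Nsdhl passed over the brighter genes alone (0.031) and without hApoF 11 (0.027).

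Sqle, squalene epoxidase, a rate-controlling oxygenase of the arm, had levels of 7.19, 7.77 and 8.05 in GFP livers and 8.16, 8.56 and 9.69 in hApoF livers. No hApoF array reached down to the GFP range, and the rise was 1.03 (SE 0.23, 2.04-fold, limma adjusted p = 0.012). Lss, lanosterol synthase, which closes the rings, had 6.38, 6.60 and 7.11 against 6.97, 7.38 and 8.25, with only hApoF 11 inside the GFP range. It rose by 0.84 (SE 0.19, limma adjusted p = 0.013). Cyp51, the lanosterol demethylase, had 8.15, 8.51 and 8.81 against 8.80, 9.28 and 10.07. Its groups touched at hApoF 9, and it rose by 0.87 (SE 0.21, limma adjusted p = 0.018). Tm7sf2, a sterol reductase acting after Cyp51, was the least scattered of the strong risers, with 8.14, 8.26 and 8.52 in GFP livers and 8.64, 8.78 and 8.99 in hApoF livers. It rose by 0.51 (SE 0.09, limma adjusted p = 0.0023) and hApoF 7, highest for most enzymes, was its lowest hApoF array.

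Differences were smaller at the ends of the arm. Fdft1, squalene synthase, which commits farnesyl diphosphate to sterols, had levels of 9.46, 9.56 and 9.75 in GFP livers and 9.42, 9.78 and 10.44 in hApoF livers. Only 3 hApoF arrays exceeded all GFP arrays, and the difference of 0.31 (95% interval -0.01 to 0.63) did not pass (limma adjusted p = 0.248); without hApoF 7 it was 0.20. Sc5d, a late desaturase, had 10.97, 11.08 and 11.21 against 11.14, 11.36 and 11.59. It rose by 0.27 (SE 0.08, limma adjusted p = 0.047), but the call was lost in 10 of 12 omissions of 1 array (adjusted p up to 0.101, without GFP 6), all but those of GFP 1 and hApoF 11. It was also lost when arrays were centred (0.088) or quantile normalized again (0.081). Dhcr7, the last reductase of the branch through dehydrocholesterol, differed by 0.33 (interval 0.08 to 0.59, limma adjusted p = 0.105) and passed only without hApoF 11 (0.041) among the omissions. Ebp, the sterol isomerase, had the smallest difference, 0.13 (interval -0.04 to 0.31, limma adjusted p = 0.391). Its 6 hApoF levels included 5 above every GFP array and 1, hApoF 12 at 9.28, below every GFP array.

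The number of called enzymes went down to 7 when GFP 2, GFP 3 or the pair GFP 4 and hApoF 12 was left out, and up to 12 without hApoF 11, when Mvd, Nsdhl and Dhcr7 also passed.

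The hApoF livers differed among themselves in these enzymes. The array hApoF 7 had the highest hApoF level in 11 of 16 enzymes, and hApoF 11 the lowest in 11. Both hApoF 7 and hApoF 8 exceeded every GFP array in all 16 enzymes, hApoF 12 did so in 15, hApoF 10 in 12, hApoF 9 in 11 and hApoF 11 in 7. Averaged over the 16 enzymes, the level minus the GFP mean was 1.02 in hApoF 7, 0.86 in hApoF 12, 0.65 in hApoF 8, 0.44 in hApoF 10, 0.33 in hApoF 9 and 0.20 in hApoF 11. GFP arrays lay between -0.24 (GFP 3) and 0.19 (GFP 1), so hApoF 11 was about level with the highest control. The SD among hApoF livers exceeded that among GFP livers in 14 of 16 enzymes, beside 56.0% of all genes.

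**Figure D3:**
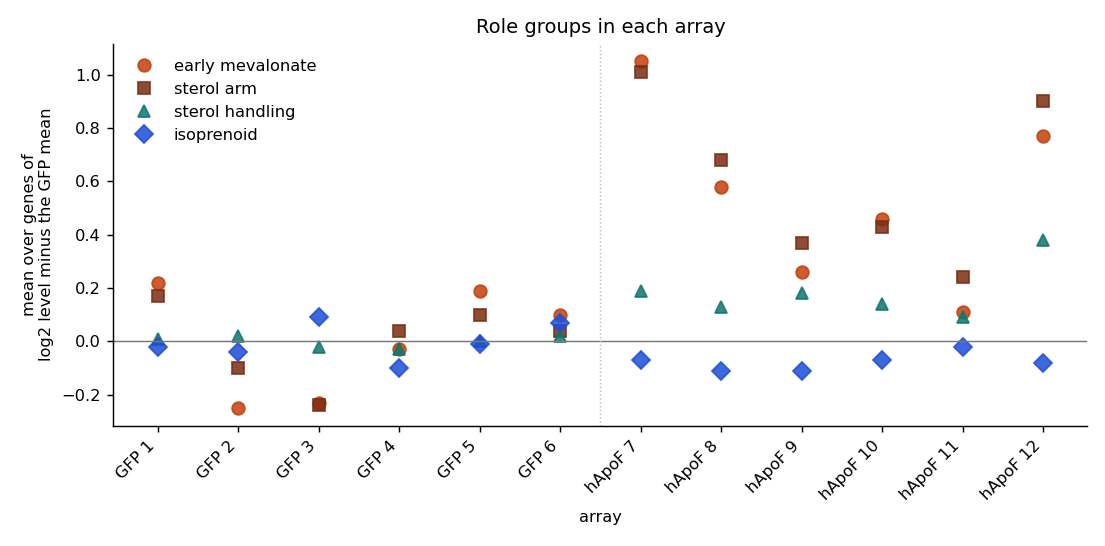
Mean over the genes of each role group of the log2 level minus the gene's GFP mean (vertical axis), for each of the 12 arrays. The early mevalonate and sterol arm values of the hApoF arrays run from 0.11 to 1.05, and the isoprenoid values of the same arrays from -0.11 to -0.02.

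Promoter sequence is given for 4 of the enzymes and for Fntb because the enzymes were higher together and SREBP is known to bind sterol regulatory elements beside CCAAT boxes, which bind NF-Y. These 5 genes were picked after their values were seen. RefSeq start sites of the GRCm38.p6 assembly were found for 27 of the 35 listed genes, and the 250 bases before each start were searched on both strands. A sterol regulatory element written TCACNCCAC (GTGGNGTGA on the other strand) was present in 1 of the 27 genes, Hmgcs1, and in 1.22% of all 27025 genes with a start site in that table. Among the enzymes with a start site it was thus found in 0 of 7 that were called and in 1 of 6 that did not pass. Fdps and Sqle, both called, and Fdft1, which did not pass, had no start site to search. Only exact matches were counted, so a count of 0 does not show that a gene lacks such an element. A gene counts here if any of its start sites has the motif. Its shorter form TCACNCCA, which lies inside the longer, was present also in Msmo1, and in 4.2% of all genes. The CCAAT box (CCAAT or ATTGG) was present in 14 of the 15 early mevalonate and sterol arm genes with a promoter, in 4 of 4 sterol handling genes and in 3 of 8 isoprenoid genes, against 37.5% of all genes counted the same way. It was found in 7 of 7 called enzymes and in 6 of 6 enzymes that did not pass, so its presence did not separate them. A further motif, the GC box (GGGCGG or CCGCCC), was also frequent. It was present in 5 of 6 early mevalonate, 9 of 9 sterol arm, 2 of 4 sterol handling and 4 of 8 isoprenoid genes, against 35.4% of all genes. These matches are descriptions of letters, and nothing was measured about binding. Each sequence below is read toward the start site, with the sterol regulatory element (either form) and the CCAAT box in capitals and all else in lower case.
Hmgcs1, chr13:119690101-119690350, plus strand: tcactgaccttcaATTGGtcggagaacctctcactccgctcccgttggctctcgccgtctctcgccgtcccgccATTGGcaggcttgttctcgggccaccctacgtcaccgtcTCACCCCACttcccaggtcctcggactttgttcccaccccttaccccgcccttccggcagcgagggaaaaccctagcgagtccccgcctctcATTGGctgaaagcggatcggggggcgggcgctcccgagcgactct
Msmo1, chr8:64733579-64733828, minus strand: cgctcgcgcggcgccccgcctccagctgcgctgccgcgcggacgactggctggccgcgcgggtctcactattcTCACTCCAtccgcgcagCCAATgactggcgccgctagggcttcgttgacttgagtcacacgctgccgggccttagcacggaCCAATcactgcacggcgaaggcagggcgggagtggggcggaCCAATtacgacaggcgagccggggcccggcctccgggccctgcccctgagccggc
Hsd17b7, chr1:169969206-169969455, minus strand: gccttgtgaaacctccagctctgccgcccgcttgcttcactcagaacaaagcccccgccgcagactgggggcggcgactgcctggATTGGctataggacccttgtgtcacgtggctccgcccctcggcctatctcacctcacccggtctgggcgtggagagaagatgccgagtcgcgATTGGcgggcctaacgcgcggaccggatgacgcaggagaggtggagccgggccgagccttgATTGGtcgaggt
Cyp51, chr5:4104698-4104947, minus strand: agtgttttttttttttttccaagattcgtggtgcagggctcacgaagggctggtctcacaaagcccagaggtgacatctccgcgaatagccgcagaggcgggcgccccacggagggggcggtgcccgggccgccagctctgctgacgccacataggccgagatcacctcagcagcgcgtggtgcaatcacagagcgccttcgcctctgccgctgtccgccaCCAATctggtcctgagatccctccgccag
Fntb, chr12:76837217-76837466, plus strand: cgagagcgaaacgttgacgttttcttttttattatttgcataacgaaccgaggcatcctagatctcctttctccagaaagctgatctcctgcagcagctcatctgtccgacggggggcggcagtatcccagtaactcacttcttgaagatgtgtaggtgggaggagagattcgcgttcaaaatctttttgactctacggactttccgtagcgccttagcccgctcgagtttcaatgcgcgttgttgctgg
In Hmgcs1 the element stood 137 bases before the start, with 3 CCAAT boxes around it. In Msmo1 the shorter form stood 177 bases before the start, and the nearest of 3 CCAAT boxes began 160 bases before it. Hsd17b7 held 3 CCAAT boxes and Cyp51 a single box close to its start, and neither gene held an exact match to the element. The Fntb stretch held no exact match to the sterol regulatory element in either form or to the CCAAT box.

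Sterol handling genes were not uniform. Stard4, a cytosolic carrier that moves cholesterol between membranes, had log2 levels of 7.42, 7.65 and 7.98 in GFP livers and 7.90, 8.29 and 8.70 in hApoF livers. Only hApoF 11 was within the GFP range, and Stard4 rose by 0.60 (SE 0.12, 1.52-fold, limma adjusted p = 0.0061). Npc2, the soluble lysosomal protein that hands cholesterol to Npc1, had 7.95, 8.07 and 8.25 against 8.37, 8.47 and 8.77. The groups were apart, and Npc2 rose by 0.42 (SE 0.08, limma adjusted p = 0.0051). Both calls held in each omission of 1 array. Its partner in the lysosomal membrane, Npc1, differed by -0.02 (95% interval -0.17 to 0.13, limma adjusted p = 0.902), and the ranges lay over each other, 9.84 to 10.09 in hApoF livers and 9.89 to 10.11 in GFP livers. Lipa, the lysosomal acid lipase that frees cholesterol from its esters, differed by -0.13 (interval -0.30 to 0.03, limma adjusted p = 0.361), and Tmem97, a membrane protein that binds Npc1, by 0.05 (interval -0.11 to 0.21, limma adjusted p = 0.733).

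Npc2 and Lipa are also made by macrophages, and markers of other cells were read beside them. In a bulk sample, fewer cells of a type and less RNA per cell cannot be told apart. Of 8 Kupffer cell and macrophage markers 2 rose, Clec4f (1.26) and Vsig4 (1.38, a call lost without GFP 1, GFP 2, GFP 3, hApoF 7, hApoF 9, hApoF 11 or hApoF 12), and 0 fell. That is 25% of them, beside 2.11% of all genes that rose. Positive differences numbered 7 of 8, beside 57.7% of all genes, and 3 markers had an unadjusted p below 0.05. Their mean log2 level was 6.40 to 7.59 in GFP arrays and 6.97 to 7.96 in hApoF arrays. Of 7 endothelial markers 1 rose (14.3%), Kdr (0.44), all 7 differences were positive and 5 had an unadjusted p below 0.05, with mean levels of 8.18 to 8.72 in GFP and 8.51 to 8.94 in hApoF arrays. Of 8 stellate cell and fibroblast markers 2 rose (25%), Dcn (0.26) and Pdgfrb (0.28), 5 differences were positive and 5 markers had an unadjusted p below 0.05, with mean levels of 7.27 to 7.64 and 7.45 to 7.76. Hepatocyte markers gave 0 limma calls among 8 (3 with an unadjusted p below 0.05), with mean levels of 12.10 to 12.25 in GFP arrays and 12.22 to 12.32 in hApoF arrays. The share of all genes below that unadjusted cut was not counted, but it was not small. Col3a1, at an unadjusted limma p of 0.049, had an adjusted p of 0.232. Cholangiocyte and lymphocyte markers gave 0 limma calls among 5 and 7 (3 and 2 with an unadjusted p below 0.05). The 3 cholangiocyte markers went both ways, with Epcam and Cftr higher and Sox9 lower. Of 4 neutrophil markers 1 rose (25%), S100a9 (0.40), the only 1 of them with an unadjusted p below 0.05. The calls of Dcn, Pdgfrb and S100a9 were each lost in 9 of 12 omissions, among them those of GFP 1, GFP 2, GFP 3 and GFP 6. They were also lost when arrays were centred (limma adjusted p = 0.060, 0.062 and 0.054), that of S100a9 after a second quantile normalization too (0.071), and that of Vsig4 with the trend and robust settings of eBayes (0.090). In both groups 3 cholangiocyte, 5 lymphocyte and 4 neutrophil markers had means below 4.98, the middle of all probe sets. The 7 measured markers of dividing cells all fell, beside 4.80% of all genes that fell. Their mean levels were 7.08 to 7.81 in GFP arrays and 5.18 to 6.26 in hApoF arrays. The part of these cells in the sterol gene results was not tested. From the highest to the lowest mean over the enzymes (hApoF 7, 12, 8, 10, 9 and 11), the hApoF livers had dividing cell means of 5.92, 5.18, 5.67, 6.26, 5.87 and 6.00, and macrophage means of 7.32, 7.96, 7.42, 6.97, 7.88 and 7.49. The liver hApoF 12, with the second highest enzyme mean, had the lowest dividing cell mean and the highest macrophage mean. The liver hApoF 7, highest in the enzymes, was at the extreme of neither. The liver hApoF 9, next to lowest in the enzymes, was next to highest in macrophage mean. An order among the hApoF livers alone cannot speak to the difference between the groups. The lower quartile of whole arrays also moved with the groups: it was 3.74 to 3.80 for the hApoF arrays and 3.80 for GFP 4, and the remaining 5 controls had 3.66 to 3.72.

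The isoprenoid branch had 8 of 9 measured members that did not pass. Fntb, the catalytic subunit of protein farnesyltransferase, was the exception, with log2 levels of 5.11, 5.16 and 5.29 in GFP livers and 4.66, 4.88 and 5.05 in hApoF livers. Every hApoF array was below every GFP array, which held for 3.49% of all genes, and 4.80% of all genes fell. Fntb fell by 0.31 (SE 0.08, limma adjusted p = 0.037), with levels near the middle of all probe sets. This call was lost in 8 of 12 omissions of 1 array, those of GFP 1, GFP 2, GFP 3 (adjusted p = 0.086), GFP 5, GFP 6, hApoF 8, hApoF 10 and hApoF 12, and without GFP 4 and hApoF 12 together (0.067). Its partner Fnta, the subunit it shares with the geranylgeranyl transferase, differed by -0.09 (95% interval -0.26 to 0.08), and Pggt1b, the other catalytic subunit, by -0.07 (interval -0.22 to 0.08).

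Ggps1, which extends farnesyl to geranylgeranyl diphosphate, differed by 0.05 (95% interval -0.13 to 0.24, limma adjusted p = 0.786), beside the rise of Fdps, which makes its substrate. On the way to coenzyme Q, Pdss2, a subunit of the enzyme that builds the side chain, differed by -0.15 (interval -0.31 to 0.02). Coq2, which attaches that chain to the ring, had levels of 7.22, 7.35 and 7.40 in GFP livers and 7.04, 7.08 and 7.30 in hApoF livers, 5 of which lay below every GFP array. Its difference of -0.20 (interval -0.34 to -0.05) did not pass (limma adjusted p = 0.097) except over the brighter genes alone (0.043). The dolichol enzymes were close to 0. Dhdds differed by 0.02 (interval -0.13 to 0.18), its partner subunit Nus1 by 0.12 (interval -0.02 to 0.25) and the polyprenol reductase Srd5a3 by -0.06 (interval -0.23 to 0.11). The signs of Dhdds and Srd5a3 flipped under other scalings of the arrays.

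Further genes use these isoprenoids. Of 17 measured, 4 fell (23.5%, beside 4.80% of all genes) and 0 rose, with a median log2 difference of -0.09. Coq7, a hydroxylase of coenzyme Q synthesis, fell by 0.30 (SE 0.07, limma adjusted p = 0.015) from 6.97, 7.11 and 7.19 in GFP livers to 6.67, 6.80 and 6.89 in hApoF livers, with no overlap, and kept its call in each omission. Zmpste24, the protease that trims farnesylated prelamin A, fell by 0.33 (limma adjusted p = 0.031), Rabggtb, a subunit of the enzyme that modifies Rab proteins, by 0.59 (0.044) and Dolk, dolichol kinase, by 0.22 (0.045). Zmpste24 lost its call in 7 of 12 omissions, keeping it without GFP 4, GFP 5, hApoF 7, hApoF 10 or hApoF 12 (adjusted p up to 0.078, without GFP 2). Rabggtb lost it in 10, all but those of GFP 4 and hApoF 7 (up to 0.097), and Dolk in 11, all but that of GFP 4 (up to 0.102). After a second quantile normalization Rabggtb (0.078) and Dolk (0.135) did not pass either. At an unadjusted p below 0.05, where the share of all genes was not counted, the group held 5 genes, the further one being Chml (-0.45).

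Around the sterol pathway, 3 lists held 1 gene each that rose and none that fell in the limma test, beside 2.11% of all genes that rose and 4.80% that fell. For the counts at an unadjusted p below 0.05 no share of all genes was counted. Of 11 measured SREBP control genes 1 rose (9.09%), and 4 had an unadjusted p below 0.05, with Insig1, Insig2 and Scap higher and Erlin2 lower. Insig1, the sterol-regulated anchor that holds Scap, was the gene that rose. Its levels were 10.21, 10.40 and 10.54 in GFP livers and 10.80, 11.03 and 11.34 in hApoF livers. The groups were apart, and again hApoF 11 was the lowest hApoF array. Srebf2, which encodes SREBP2 itself, differed by 0.15 (95% interval -0.01 to 0.30, limma adjusted p = 0.259), Scap by 0.30 (interval 0.10 to 0.50, 0.067) and Srebf1 by -0.09 (0.772). Of 6 genes of sterol export and the sterol-sensing receptor LXR 1 rose (16.7%) and 4 had an unadjusted p below 0.05. These 4 went both ways, with Mylip and Abcg5 higher and Nr1h3 and Abca1 lower. The gene that rose was Mylip, with levels of 6.75 to 6.96 in GFP livers and 7.20 to 7.65 in hApoF livers. The cholesterol exporter gene Abca1 differed by -0.19 (limma adjusted p = 0.124). Of 4 genes that supply cytosolic acetyl-CoA 1 rose (25%), the only 1 with an unadjusted p below 0.05: Acss2, the acetate-using synthetase, from 8.21, 8.48 and 8.70 to 8.83, 9.18 and 9.59, while Acly, which splits citrate for the same purpose, differed by -0.02 (limma adjusted p = 0.950).

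**Figure D4:**
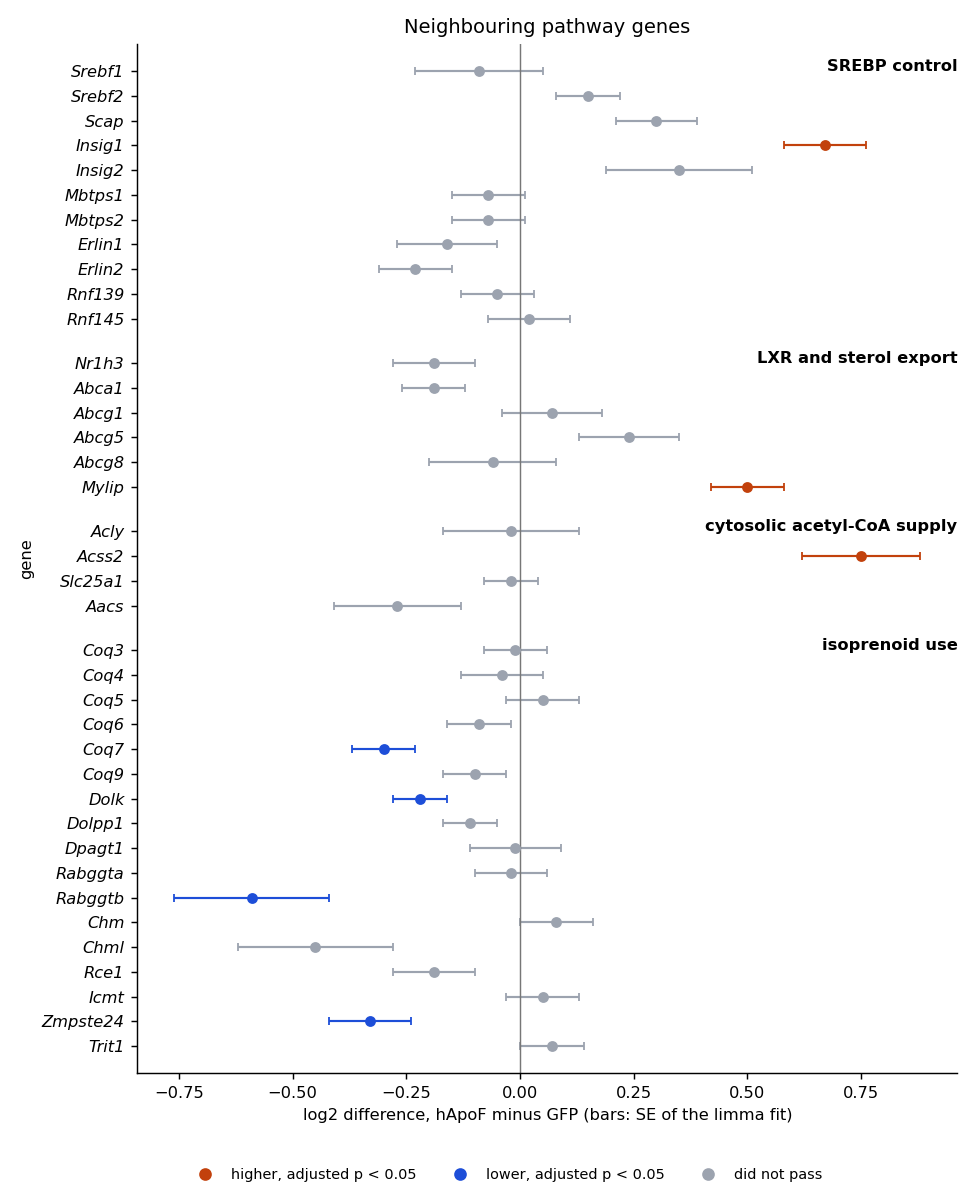
Log2 difference in level, hApoF minus GFP (horizontal axis), for 38 genes of sterol control, sterol export, acetyl-CoA supply and isoprenoid use; bars are the SE of the limma fit over 6 GFP and 6 hApoF arrays. Insig1, Mylip and Acss2 passed as higher, and Coq7, Dolk, Rabggtb and Zmpste24 as lower.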

How the data were processed

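Liver RNA was measured on 12 arrays, and the deposited table holds the authors' log2 values for 35145 probe sets, with 0 missing. Per the submitters' processing notes they were made with oligo by RMA, a background-corrected and quantile-normalized summary of each probe set. Versions were not given in the sources. RMA gives relative levels, so values were compared within a probe set only. Probe sets with exactly 1 symbol in the platform annotation (23521, for 22180 genes) were used, and those with several (1814) or none listed (9810) were left out. No filter was applied.

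Groups came from the virus in the labels. The fit was limma 3.58.1 (R 4.3.3; lmFit and eBayes, no covariates) over all genes, with Benjamini-Hochberg adjustment and a threshold of 0.05; intervals are its 95% intervals. It was tested on simulated data. The labels do not say that each array is a separate animal, so p-values speak of the spread among the samples, and the number of arrays limits precision. Counts at an unadjusted p below 0.05 have no share of all genes beside them.

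Alternatives were centring, a second quantile normalization, trend and robust settings, genes above the median probe set level only, the mean of a gene's probe sets, and omission of each array. Leaving out GFP 4 and hApoF 12 together was chosen after seeing the data. The members and lists were chosen with earlier results of these data known. All members are named; non-members were named from the lists written for this work, chosen by lowest p among those called, and any other after their values were seen. Promoters are from RefSeq (GRCm38.p6). Tables were made with Python 3.11.15 and pandas 2.3.3, plots with matplotlib 3.10.9.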

Additional observations from a re-analysis of the deposited data

Results flagged for a closer look

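A single array stood apart from the other 5 of its group in 4 of 60 sets of 6 levels examined (30 genes in both groups); chance alone singles out about 1 set in 20. Mvk was lowest in GFP 2, at 5.53, with the next array at 5.94. Mvd was highest in hApoF 7, at 6.91, with the next at 6.32. GFP 4 was lowest for Nus1, at 8.80 with the next at 8.95, and for Fnta, at 7.75 with the next at 8.05.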

How the results depend on the processing

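No paired analysis was possible because the groups share no replicate numbers. In every setting tried all 16 enzymes had a positive difference, and the members called higher numbered 9 to 14 over the omissions of 1 array, against 11 with all arrays. Mevalonate enzymes called higher numbered 1 to 3 over the omissions and 1 without GFP 4 and hApoF 12 together, against 2. The isoprenoid members called lower, which are also all members called lower, numbered 0 to 1 over the omissions, 0 without GFP 4 and hApoF 12 together and 2 over the brighter genes alone, where fewer genes were tested. Over all genes the number called higher was 254 to 653 over the omissions, against 469. The median of the sterol handling genes, 0.05, was 0.022 with arrays centred and 0.016 to 0.086 over the omissions, and that of the isoprenoid members, -0.07, ran from -0.11 to -0.03 over the omissions. Differences near 0 that changed sign, none of them called, were Npc1 (-0.046 to 0.005 over the omissions, positive without GFP 2, hApoF 7 or hApoF 11), Ggps1 (-0.017 without GFP 4 and hApoF 12 together), Dhdds (-0.007 with arrays centred and -0.009 to 0.056 over the omissions, negative without GFP 6 or hApoF 11) and Srd5a3 (0.005 after a second quantile normalization). The cause was not tested.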
